A study of Zea mays with 12 samples.

Results

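Persistent synergid cells of the maize inbred line B73 were compared at 18 and 24 h after pollination (HAP). The comparison takes the 3 libraries of the 18 HAP stage (pSC18) and the 3 of the 24 HAP stage (pSC24), which are 6 of the 12 libraries of the series, and covers all genes rather than a chosen set. Of 45246 genes and loci counted, 21143 had enough counts to be tested. The other 6 libraries, synergid cells before pollination (SC) and persistent synergid cells at 12 HAP (pSC12), entered the same statistical fit and are given only as reference levels. The question was which transcripts change in the 6 h during which the cell moves towards its elimination.

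All plants were wild type and untreated apart from pollination. Each library was made from 25 to 28 cells that were isolated by hand after a cell wall digestion with cellulase and macerozyme, pooled, and amplified with a SMART-Seq v4 kit before sequencing. A library is therefore a mean over its cells. The sources do not say whether the cells of a library came from separate plants, so the p-values measure the spread between these pools. In such bulk samples, fewer cells of a type and less RNA per cell cannot be told apart.

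Synergids are the glandular cells beside the egg cell. They secrete peptides that attract and receive the pollen tube. One synergid dies when the tube bursts, and the second, persistent synergid is eliminated after fertilization by a developmentally controlled cell death, which stops the attraction of further tubes. In plants, such programmes are known to use NAC transcription factors, vacuolar and ER-derived cysteine proteases, and nucleases that act once the vacuole has collapsed, and ethylene signalling has been tied to the removal of the persistent synergid in Arabidopsis.

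The libraries held 15435736 to 20834163 counts on genes in pSC18 and 20319633 to 25897204 in pSC24. Levels are given as the deposited FPKM (fragments scaled by gene length and library size), one value per library in the order of replicates 1, 2 and 3. Differences are log2 fold changes of pSC24 over pSC18 from edgeR's quasi-likelihood test on the counts, with their standard error (SE). A gene was called when its Benjamini-Hochberg adjusted p, taken over all genes tested, was under 0.05 and its change over 2-fold. A function named for a gene is that of the protein its deposited description matched, most often from Arabidopsis or rice. How reads on near-identical or overlapping genes were assigned is not given in the sources used here, so values of close paralogs and antisense pairs are uncertain.

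Of 7 synergid markers, the secreted products ZmES4 and ZmSC1 were abundant at both stages, whereas the regulators ZmMYB98 and ZmHB81 fell and ZmHB24, ZmHB42 and ZmHB44 were lower without being called, as given with the other falls. The cysteine-rich secreted peptide ZmES4 stood at 8494, 10285 and 8433 FPKM in pSC18 and at 9988, 9764 and 13014 in pSC24. The most abundant transcript, ZmSC1, stood at 49401, 60809.6 and 51308 FPKM in pSC18 and 57829.9, 60683 and 80259.8 in pSC24. The libraries of both stages overlapped for ZmES4, and for ZmSC1 the difference did not pass the test (log2 fold change 0.29 ± 0.13, adjusted p = 0.162).

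Between 18 and 24 HAP, 1019 genes rose (4.82% of the genes tested) and 689 fell (3.26%). Rises were larger than falls. The median log2 fold change was 2.29 among the genes that rose and -1.45 among those that fell, against -0.01 over all genes tested. Rises over 8-fold (a log2 fold change over 3) were found for 398 genes and falls of that size for 72. In 93 of the rising genes no fragment was counted in any pSC18 library, and 26 of the falling genes had none in any pSC24 library.

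Most rises started from a low level. The median of the genes that rose was 2.52 FPKM in pSC18 and 13.2 in pSC24, and it had been 2.19 in SC and 1.88 in pSC12. The genes that fell started higher, with a median of 9.13 FPKM in pSC18 and 3.26 in pSC24, after 10.3 in SC and 9.45 in pSC12. A mean FPKM over 100 in the higher stage was reached by 47 genes that rose and by 31 that fell. All 3 libraries of one stage lay above all 3 of the other for 1010 of the rising genes and 672 of the falling ones. Over all genes tested, 17.2% had such a gap upwards and 14.4% downwards.

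**Figure D1:**
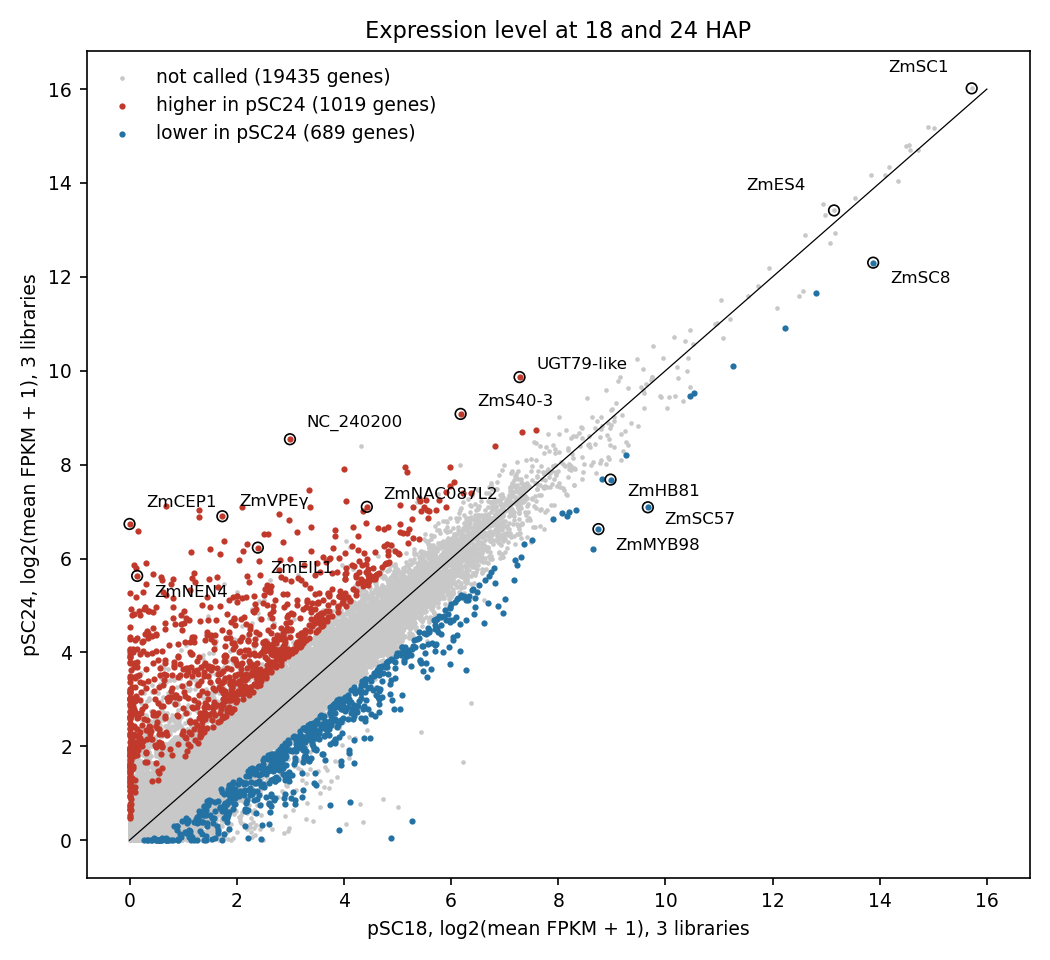
Mean expression of each tested gene at 18 HAP (x axis) and 24 HAP (y axis), both as log2(FPKM + 1) over 3 libraries, with called genes in colour. The 1019 rises include genes at the left edge that had no count at 18 HAP, whereas the most abundant synergid transcripts such as ZmSC1 and ZmES4 lie near the diagonal and ZmSC8, ZmSC57 and ZmMYB98 lie below it.

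The highest fold bound among named genes with no count at 18 HAP was that of a cell death protease. ZmCEP1 (Zm00001eb039650, chromosome 1, 210055771 to 210057636 on Zm-B73-REFERENCE-NAM-5.0), matched to the Arabidopsis KDEL-tailed cysteine endopeptidase CEP1, an enzyme of ER-derived vesicles that acts in tapetal cell death, had no count in any pSC18 library. It stood at 118, 97.2 and 101 FPKM in pSC24. Against a floor of 3 counts over the 3 pSC18 libraries together, it was at least 3566-fold higher (adjusted p = 4.08e-05). It was also at 0 in every SC and pSC12 library, and it was called without any one of the 6 libraries.

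A second papain-type protease, matched to the rice oryzain beta chain (Zm00001eb066830), was already present and rose from 63, 54.4 and 68 to 146, 209.9 and 206 FPKM (log2 fold change 1.59 ± 0.16, adjusted p = 0.00014). These were the only genes called among the 11 tested genes with a papain domain. The vacuolar processing enzyme ZmVPEγ (Zm00001eb345400, chromosome 8, 80209740 to 80211408), of the legumain family that matures vacuolar hydrolases and has caspase-1-like activity, had 0, 0 and 6.97 FPKM in pSC18 and 90.1, 93.6 and 172 in pSC24. Its groups did not overlap (log2 fold change 5.61 ± 1.30, adjusted p = 0.0234), but the call was lost without pSC24 replicate 3 (adjusted p = 0.0618).

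In a list of other cysteine proteases, legumains and metacaspases, 4 of 25 tested genes rose (16%, beside 4.82% of all genes tested) and 1 fell, and 0 of these rises were called with a term for the mapping set, a grouping of the libraries by the share of their reads that mapped to the genome. Of 59 aspartic, subtilisin and carboxypeptidase genes, 1 rose and 4 fell, with a median log2 fold change of -0.01. A protease inhibitor gene rose too. Putative serpin-Z12 (Zm00001eb333150), a serpin of the family that traps serine and cysteine proteases, rose from 34.9, 41.8 and 25.7 to 229, 312 and 196 FPKM (log2 fold change 2.83 ± 0.58, adjusted p = 0.00651).

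Among nucleases, 2 genes of the NEN type rose in every setting tried. ZmNEN4 (Zm00001eb267630, chromosome 6, 52605100 to 52606565) encodes a NEN exonuclease, a family that in Arabidopsis breaks down the nucleus of differentiating sieve elements. It had 0.0468, 0 and 0.264 FPKM in pSC18 and 55.1, 40 and 50.5 in pSC24 (log2 fold change 8.70 ± 0.63, adjusted p = 0.000148). Its paralog matched to NEN1 (Zm00001eb223190) went from 0.893, 0 and 0.18 to 27.8, 9.94 and 27.9 FPKM (log2 fold change 6.01 ± 0.96, adjusted p = 0.00175). Both were called without any one of the libraries, and neither gene's groups overlapped.

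The bifunctional nuclease ZmBFN1 (Zm00001eb043930), an S1-type enzyme that cleaves DNA and RNA in senescing and dying tissue, had 1.22, 0 and 0 FPKM in pSC18 and 17.5, 9.72 and 32.5 in pSC24. Its groups were separate, yet its call was marginal (log2 fold change 5.70 ± 1.56, adjusted p = 0.0348). It was lost without pSC18 replicate 2 (adjusted p = 0.084), pSC18 replicate 3 (0.0695) or pSC24 replicate 1 (0.0647), 2 (0.0544) or 3 (0.112). Over the whole list, 9 of 178 nuclease genes rose (5.06%) and 6 fell (3.37%), which is close to the shares over all genes tested.

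**Figure D2:**
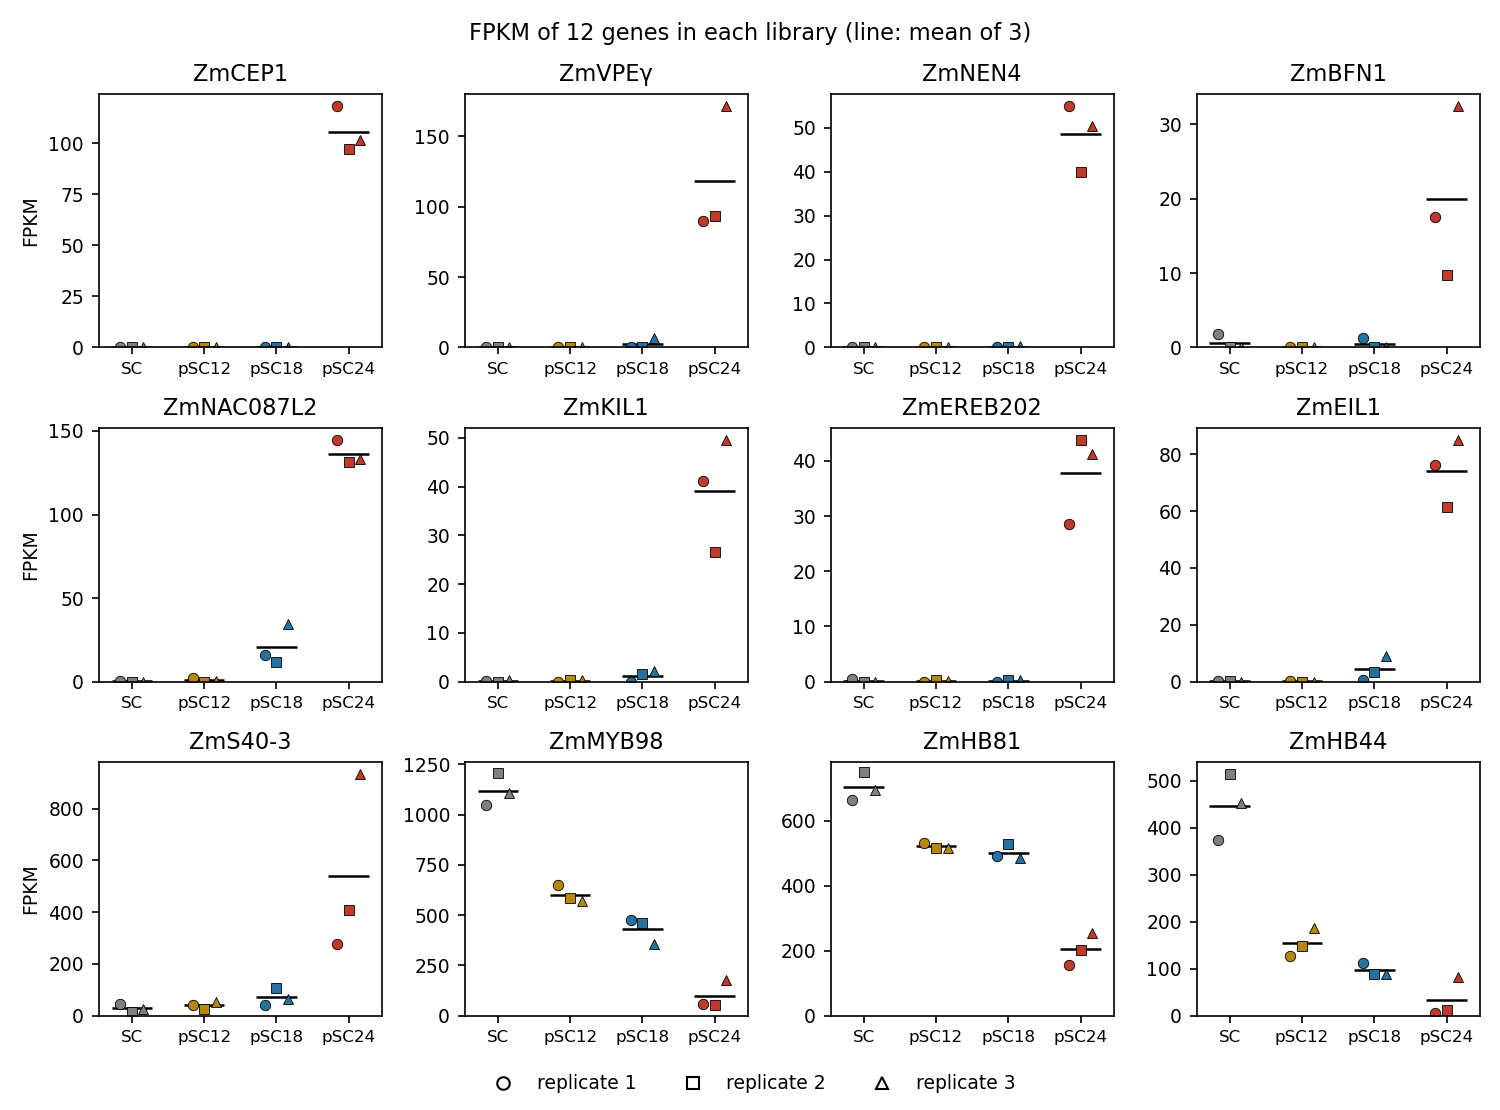
FPKM of 12 genes in each of the 12 libraries, with 1 symbol per replicate, a black line at the mean of 3 libraries and an own y axis per gene. The proteases, nucleases and transcription factors from ZmCEP1 to ZmEIL1 are lower in every library before 24 HAP than in any of the 3 pSC24 libraries, and ZmMYB98 and ZmHB81 are lowest at 24 HAP.

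Among transcription factors, the calls of NAC genes were rises. Of 55 tested genes with a NAM domain, the DNA-binding domain of this plant family, 13 rose (23.6%) and 0 fell, with a median log2 fold change of 0.57 and 36 genes above 0. Summed over all NAM genes, the level was 338, 302 and 379 FPKM in pSC18 and 696, 649 and 709 in pSC24. Without pSC18 replicate 3, 11 of the 13 were still called, and 8 were called without any one of the 6 libraries.

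The most abundant of them, ZmNAC087L2 (Zm00001eb330910, chromosome 7, 182734869 to 182736688), is related to Arabidopsis ANAC087, a regulator of root cap cell death. It had 16, 11.4 and 34.2 FPKM in pSC18 and 145, 131 and 133 in pSC24 (log2 fold change 2.72 ± 0.72, adjusted p = 0.0249). Replicate 3 of pSC18 was the highest of its stage, but the groups did not overlap. The call was lost without pSC18 replicate 1 (adjusted p = 0.0829) or 2 (0.0836) and without pSC24 replicate 1 (0.0534) or 2 (0.0558). It kept its call without pSC18 replicate 3 (adjusted p = 0.0245).

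Its paralogs followed. ZmNAC087L3 (Zm00001eb093650) rose from 0.644, 0.3 and 0.303 to 27.6, 21.2 and 42.1 FPKM (log2 fold change 6.20 ± 0.62, adjusted p = 0.000126). ZmNAC087L1 (Zm00001eb015570) rose from 1.46, 3.53 and 3.66 to 27.4, 23.7 and 25.7 FPKM (log2 fold change 3.13 ± 0.70, adjusted p = 0.0109). Both calls held without any one library, whereas that of ZmNAC087L4 (Zm00001eb195770, 1.99, 3.25 and 3.82 FPKM in pSC18 and 22, 46.7 and 29 in pSC24, adjusted p = 0.0256) was lost without each of the libraries except pSC24 replicate 1, with adjusted p up to 0.102 (without pSC24 replicate 2).

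ZmKIL1 and ZmKIL2 carry the name of KIRA1-like genes, after the Arabidopsis NAC factor that sets the end of stigma life. ZmKIL1 (Zm00001eb077580) had 0, 1.48 and 2.09 FPKM in pSC18 and 41.2, 26.5 and 49.6 in pSC24 (log2 fold change 4.99 ± 0.93, adjusted p = 0.00407). ZmKIL2 (Zm00001eb426640) had 0, 0 and 0.251 FPKM in pSC18 and 4.11, 6.66 and 11.4 in pSC24 (log2 fold change 6.31 ± 1.23, adjusted p = 0.0113). A further NAC rise was that of a gene matched to NAC018 (Zm00001eb175500), with 0, 0.728 and 0 FPKM in pSC18 and 36, 31.8 and 60.8 in pSC24 (log2 fold change 7.38 ± 0.91, adjusted p = 0.000749). The 3 calls held without any one library.

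AP2 domain genes formed the second class, the family of ethylene response factors. Of 78 tested, 15 rose (19.2%) and 2 fell, with a median of 0.74. Their summed level was 394, 413 and 426 FPKM in pSC18 and 777, 613 and 736 in pSC24. Without pSC18 replicate 3, 9 of the 15 rises were called, and 6 were called without any one of the libraries.

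ZmEREB154 (Zm00001eb075900, chromosome 2, 25177403 to 25179618), matched to Arabidopsis ERF053, had no count in pSC18 and 18.3, 10.2 and 18.1 FPKM in pSC24, at least 650.4-fold higher (adjusted p = 0.00197). ZmEREB202 (Zm00001eb099980) had 0, 0.283 and 0.283 FPKM in pSC18 and 28.5, 43.8 and 41.2 in pSC24 (log2 fold change 7.52 ± 0.96, adjusted p = 0.00044). ZmEREB65 (Zm00001eb103110) had 0.131, 1.88 and 1.02 FPKM in pSC18 and 26.1, 25.9 and 33.3 in pSC24 (log2 fold change 4.77 ± 0.71, adjusted p = 0.00332). These 3 genes were called without any one library, as were ZmEREB113 (log2 fold change 2.94 ± 0.58) and ZmEREB174 (5.77 ± 1.22).

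Other members were less certain. ZmEREB6 (Zm00001eb074730, 0, 0 and 0.766 FPKM in pSC18 and 15.2, 8.57 and 19.8 in pSC24, adjusted p = 0.0277) lost its call without pSC18 replicate 1 (adjusted p = 0.0708) or 2 (0.0636) and without pSC24 replicate 1 (0.0634) or 3 (0.0851). ZmEREB2 (4.96, 1.85 and 15.4 FPKM in pSC18 and 36.9, 13.1 and 25.9 in pSC24, adjusted p = 0.225) and ZmEREB100 (5.5, 3.72 and 2.65 FPKM in pSC18 and 13.1, 15.8 and 9.17 in pSC24, adjusted p = 0.126) did not pass the test. The library groups of ZmEREB2 overlapped and those of ZmEREB100 did not. One of the falls in this family was a gene matched to APETALA2-like protein 5 (Zm00001eb068520), which went from 4.67, 6.26 and 5.54 to 2.04, 1.38 and 2.01 FPKM (log2 fold change -1.61 ± 0.23, adjusted p = 0.00101).

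In the list of ethylene synthesis and signalling genes, 7 of 29 tested genes rose (24.1%) and 1 fell. The summed level of the list was 178, 179.8 and 182 FPKM in pSC18 and 398, 367 and 384 in pSC24. Among the rises was ZmEIL1 (Zm00001eb015440, chromosome 1, 52825403 to 52829476), an EIN3-like transcription factor that switches on ethylene responses in the nucleus. It had 0.488, 3.47 and 8.82 FPKM in pSC18 and 76, 61.6 and 85.1 in pSC24 (log2 fold change 4.10 ± 0.78, adjusted p = 0.00442), and it was called without any one library.

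ZmEIN3 (17.9, 16.3 and 12 FPKM in pSC18 and 106, 77.6 and 61.6 in pSC24) was higher in every pSC24 library than in every pSC18 library, but its adjusted p was 0.142. The enzymes that make ethylene from 1-aminocyclopropane-1-carboxylate (ACC) rose at 2 loci. ZmACO20 (Zm00001eb193360) went from 4.77, 9.49 and 7.49 to 25.3, 30.1 and 26.8 FPKM (log2 fold change 1.90 ± 0.29, adjusted p = 0.0012). ZmACO5 (Zm00001eb357070) had no count in pSC18 and 1.35, 6.29 and 4.87 FPKM in pSC24, at least 148-fold higher (adjusted p = 0.0104). The ACC synthase ZmACS3 did not pass the test (6.8, 5.16 and 4.61 FPKM in pSC18 and 6.08, 5.8 and 4.21 in pSC24, adjusted p = 0.934), and its groups overlapped.

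A pair of negative regulators of the pathway also rose. A gene matched to REVERSION-TO-ETHYLENE SENSITIVITY1 (Zm00001eb294260), which in Arabidopsis activates the receptor ETR1 and so dampens signalling, went from 1.18, 2.56 and 1.86 to 13.4, 18 and 28.1 FPKM (log2 fold change 3.38 ± 0.54, adjusted p = 0.0017). A maize gene matched to the EIN3-binding F-box protein EBF2 (Zm00001eb386390), part of the ligase that degrades EIN3, went from 3.33, 1.52 and 0.994 to 9.11, 7.85 and 8.23 FPKM (log2 fold change 2.10 ± 0.40, adjusted p = 0.00455). The EBF2 gene lies outside the rule for naming genes and was picked after its values were seen. Both calls held without any one library.

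Genes with a bZIP_1 domain had 6 rises (11.8%) and 1 fall among 51 tested, of which 2 rises were called without any one library. For WRKY genes the numbers were 2 rises (4.55%) and 1 fall (2.27%) of 44, and for MYB-type genes 3 rises (3.33%) and 2 falls (2.22%) of 90. These shares are under the 4.82% and 3.26% of all genes. One WRKY gene (Zm00001eb357350, matched to WRKY9) went from 0, 0 and 0.321 to 19.1, 15.5 and 21.6 FPKM (log2 fold change 7.25, adjusted p = 0.00243). Among basic helix-loop-helix genes, 4 rose (8%) and 3 fell (6%) of 50. They included a gene matched to ILR3 (Zm00001eb289490), an Arabidopsis regulator of iron homeostasis, which rose from 8.25, 18.3 and 9.92 to 49.7, 66.7 and 70.8 FPKM (log2 fold change 2.34 ± 0.35, adjusted p = 0.00117).

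**Figure D3:**
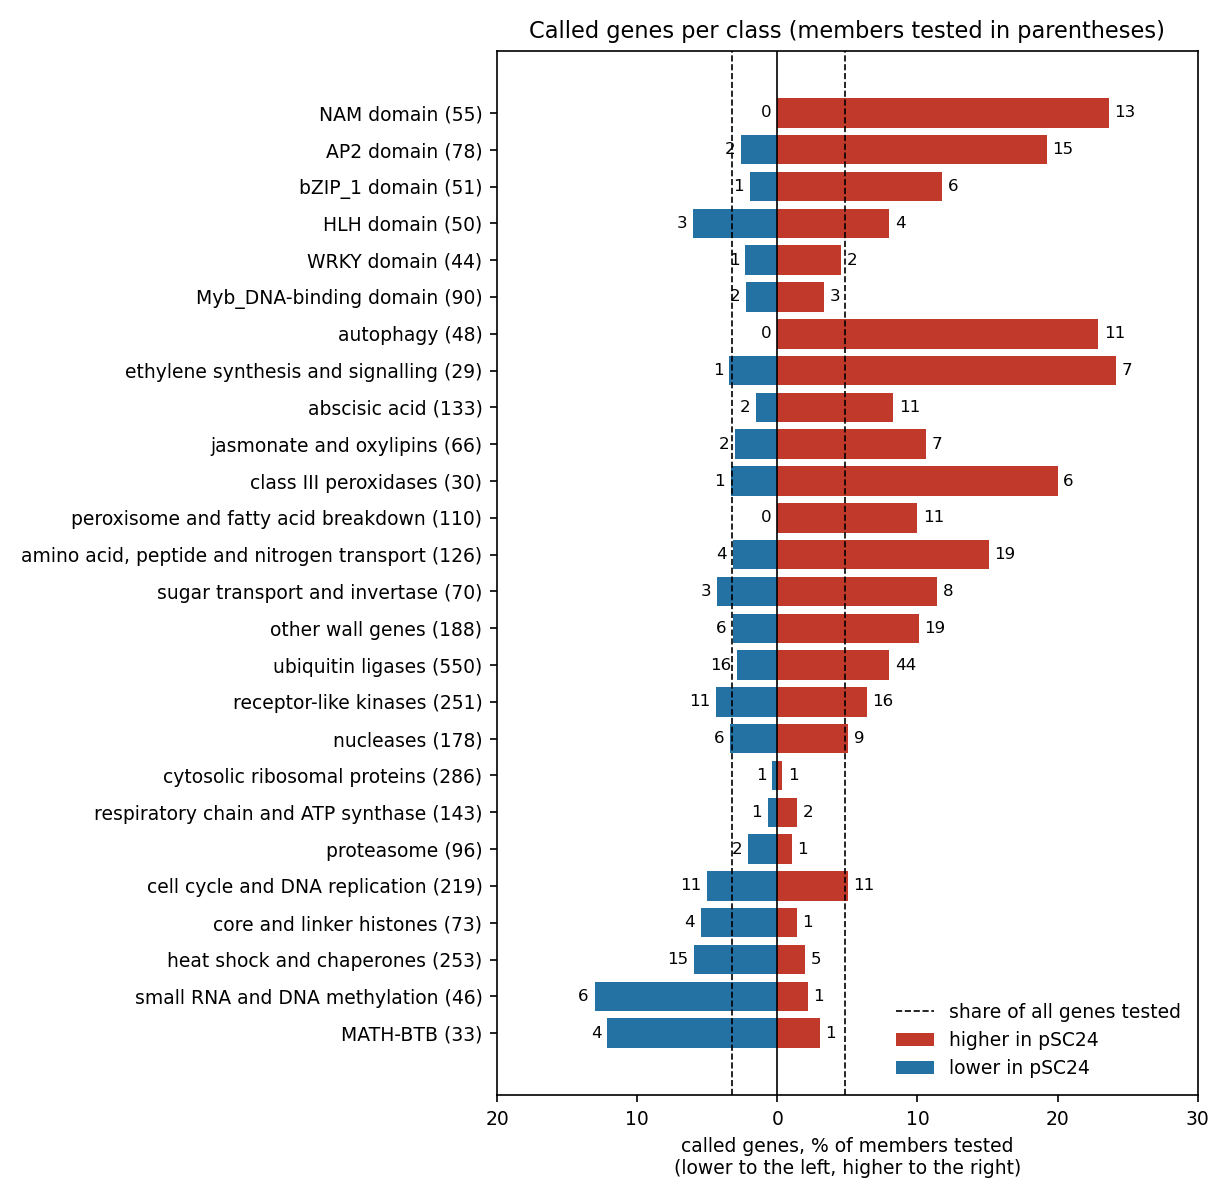
Share of the tested members of each class called higher (right, red) or lower (left, blue) in pSC24, in % of the members tested, with the number of genes beside each bar. The dashed lines mark 4.82% and 3.26%, the shares over all genes tested. NAM, AP2, autophagy and ethylene classes, with 13, 15, 11 and 7 rises, reach far past the dashed line on the right, and the small RNA and MATH-BTB classes, with 6 and 4 falls, past that on the left. The summed MATH-BTB level was high in pSC18 replicate 3 (313, 278 and 638 FPKM in pSC18, 236, 246 and 236 in pSC24). Of its 4 falls, 3 were called without any one library.

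Autophagy genes had rises and no falls among their calls. Autophagy carries cytoplasm and organelles to the vacuole in double membranes built with the help of ATG8, which is attached to lipid by ATG4, ATG7 and ATG3. Of 48 tested genes of the list, 11 rose (22.9%) and 0 fell. The median over the list was 0.70, and 39 of the 48 genes had a value above 0. All 11 rises were called without any one of the 6 libraries, and 8 of them also with the mapping-set term.

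The summed level of the list was 732, 755 and 676 FPKM in pSC18 and 1097, 1161 and 1462 in pSC24. Among the ATG8 genes, Zm00001eb070240 rose from 53.5, 63.6 and 60.1 to 125, 155 and 229 FPKM (log2 fold change 1.51 ± 0.21, adjusted p = 0.000761). A second ATG8C match, Zm00001eb431210, rose from 17.2, 17.6 and 19.5 to 55.3, 67 and 92.3 FPKM (log2 fold change 1.97 ± 0.19, adjusted p = 0.000109). The groups were apart in both, and pSC24 replicate 3 was the highest library. Another, Zm00001eb171400, rose from 11.2, 12.2 and 12.5 to 28.8, 32.4 and 51.4 FPKM (log2 fold change 1.63 ± 0.21).

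The enzymes of the ATG8 pathway rose beside it. ATG7 (Zm00001eb358160), which activates ATG8, went from 21.1, 16.6 and 20.2 to 48.3, 48.9 and 75 FPKM (log2 fold change 1.56 ± 0.18, adjusted p = 0.000239). The ATG8-processing protease ATG4B (Zm00001eb433950) went from 3.91, 11.1 and 4.12 to 32.1, 19.8 and 38.5 FPKM (log2 fold change 2.23 ± 0.50, adjusted p = 0.0109), with pSC18 replicate 2 the highest of its stage. ATG13a (Zm00001eb186120), a subunit of the kinase complex that starts autophagy, had a log2 fold change of 1.32 ± 0.15 and the phosphoinositide-binding ATG18f (Zm00001eb151200) one of 2.17 ± 0.21. ATG18h (Zm00001eb287690) and ATG18g (Zm00001eb349780) were low in pSC18, at 0.592 ± 0.166 and 0.398 ± 0.21 FPKM (mean ± SD, n = 3), and rose to 5.11 ± 1.37 and 3.1 ± 0.413. Of these, ATG8C at Zm00001eb171400, ATG13a and the ATG18 genes are beyond the rule for naming genes and were added as the other members of a short list after their values were seen.

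In the senescence list, 3 of 16 tested genes rose and 0 fell, with a median of 0.16. ZmS40-3 (Zm00001eb353760, chromosome 8, 128449999 to 128450732), with the senescence regulator domain of the S40 family that in barley and Arabidopsis marks leaf senescence, had 41.3, 108 and 65.1 FPKM in pSC18 and 278, 409 and 934 in pSC24 (log2 fold change 2.90 ± 0.51, adjusted p = 0.00297). The groups did not overlap, and pSC24 replicate 3 was far above the others. ZmS40L (Zm00001eb247750) had 0.668, 0.518 and 3.96 FPKM in pSC18 and 19.4, 16.6 and 25.6 in pSC24 (log2 fold change 3.55 ± 0.81, adjusted p = 0.0156), and its call was lost without pSC18 replicate 1 (adjusted p = 0.0501) or pSC24 replicate 3 (0.0515). A further S40-type gene, Zm00001eb322660, rose from 2.4, 2.11 and 1.19 to 7.43, 14.3 and 14 FPKM (log2 fold change 2.64 ± 0.46, adjusted p = 0.00288). These are the 3 calls of the list, and 0 of them were called with the mapping-set term.

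Among genes of peroxisomes and fatty acid breakdown, calls were rises. Of 110 tested genes, 11 rose (10%) and 0 fell, while the median over the list was 0.01. The highest was the peroxisomal NAD carrier PXN (Zm00001eb011750), which supplies NAD for fatty acid oxidation, with 64.2, 75.1 and 56.3 FPKM in pSC18 and 145, 239.8 and 202 in pSC24 (log2 fold change 1.57 ± 0.18, adjusted p = 0.000227). A gene matched to the hydroxy-acid oxidase GLO3 (Zm00001eb070280), an enzyme that makes hydrogen peroxide in peroxisomes, went from 9.02, 10.8 and 13.8 to 38.4, 29 and 33.5 FPKM (log2 fold change 1.57 ± 0.26, adjusted p = 0.00195). Long-chain acyl-CoA synthetase 4 (Zm00001eb376490), which activates fatty acids, went from 0.879, 0.75 and 0.062 to 9.68, 6.69 and 15.8 FPKM (log2 fold change 4.25 ± 0.64, adjusted p = 0.00123). All 3 held without any one library.

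Lipases and phospholipases had 9 rises (6.52%) and 3 falls (2.17%) among 138 tested, beside 4.82% and 3.26% of all genes. Non-specific phospholipase C4 (Zm00001eb064750), which in Arabidopsis degrades phospholipids during phosphate starvation and stress, had 1.36, 0 and 3.01 FPKM in pSC18 and 111, 113 and 165 in pSC24 (log2 fold change 6.45 ± 1.04, adjusted p = 0.00189). A GDSL esterase/lipase (Zm00001eb383330) rose from 13.7, 13.8 and 12.5 to 74.8, 116 and 74.5 FPKM (log2 fold change 2.72 ± 0.26, adjusted p = 0.000115), and a monoglyceride lipase (Zm00001eb120470) from 15.5, 17.5 and 12.8 to 56.3, 72.4 and 75.4 FPKM (log2 fold change 2.14 ± 0.22, adjusted p = 0.000143). The groups were separate in the 3 named genes, and each was called without any one library.

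**Figure D4:**
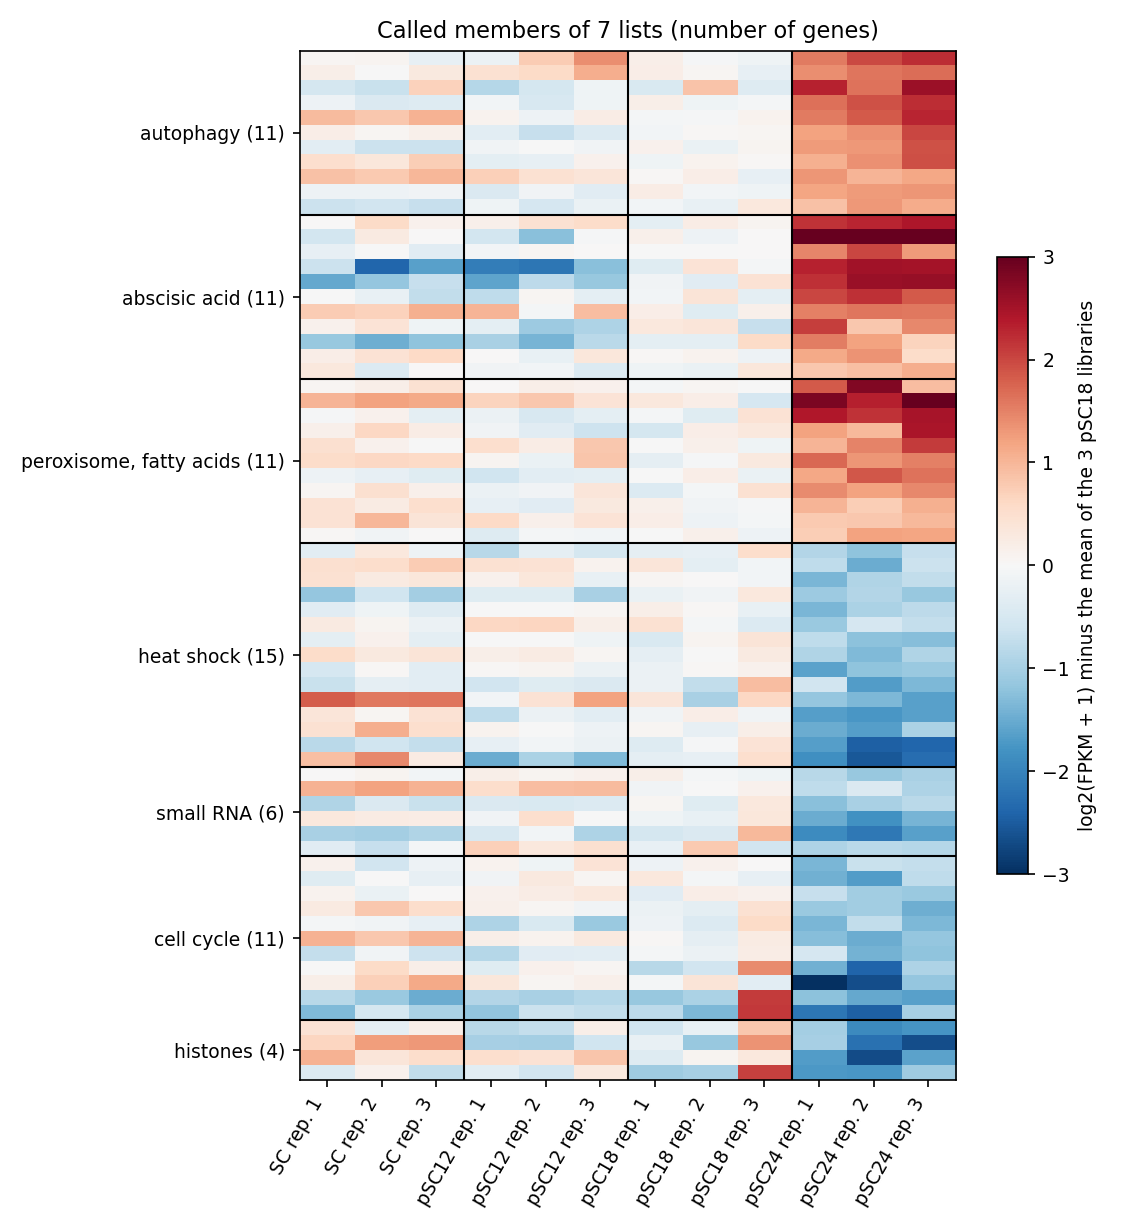
Called members of 7 lists (1 row per gene, numbers in parentheses) in all 12 libraries, coloured by log2(FPKM + 1) minus the mean of the 3 pSC18 libraries, with colours ending at 3 in either direction. The 11 autophagy rises are red in all 3 pSC24 libraries and pale in pSC18, whereas several cell cycle and histone rows are red only in pSC18 replicate 3.

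Abscisic acid (ABA) genes that rose encode several steps of its signalling. ABA is bound by PYL receptors, which block PP2C phosphatases and so release SnRK2 kinases such as the SAPK proteins. Of 133 tested genes, 11 rose (8.27%) and 2 fell, with a median of 0.23. The receptor gene ZmPYL9 (Zm00001eb204180) went from 3.44, 2.59 and 3.07 to 31, 36.5 and 40.1 FPKM (log2 fold change 3.55 ± 0.43, adjusted p = 0.000333). The kinase gene matched to SAPK7 (Zm00001eb181940) went from 11.6, 9.63 and 17.3 to 60.3, 80.1 and 81.8 FPKM (log2 fold change 2.52 ± 0.31, adjusted p = 0.000323). Both were called without any one library, and their groups were far apart.

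Named PP2C genes were among the rises. The list takes in every gene described as a protein phosphatase 2C, not only those that inhibit the pathway. Whether the named ones act on ABA signalling was not tested. A maize gene matched to PP2C 34 (Zm00001eb214320) went from 7.02, 10.2 and 5.97 to 33.5, 37.7 and 29.6 FPKM (log2 fold change 2.11 ± 0.29, adjusted p = 0.000751), and one matched to PP2C 68 (Zm00001eb098220) from 3.99, 7.45 and 5.17 to 30.4, 35.8 and 34.7 FPKM (log2 fold change 2.59 ± 0.63, adjusted p = 0.0162). The first was called without any one library and the second was lost without pSC18 replicate 1 (adjusted p = 0.0647). Of 84 genes with a PP2C domain, 6 rose (7.14%) and 2 fell, with 2 rises called without any one library.

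Among jasmonate and oxylipin genes, 7 of 66 rose (10.6%) and 2 fell (3.03%), beside 4.82% and 3.26% of all genes. A gene matched to 12-oxophytodienoate reductase 11 (Zm00001eb082050), of the family that includes a peroxisomal step of jasmonate synthesis, went from 9.08, 11.2 and 8.11 to 49.2, 95.5 and 65.5 FPKM (log2 fold change 2.87 ± 0.27, adjusted p = 0.000109). TIFY 9 (Zm00001eb084980), a JAZ-type repressor of the pathway, went from 0.763, 1.18 and 3.48 to 29.7, 42.7 and 65.7 FPKM (log2 fold change 4.63 ± 0.57, adjusted p = 0.000356). Another repressor gene, matched to TIFY 11b (Zm00001eb319450), went the other way, from 3.59, 5.44 and 4.69 to 0.253, 0.508 and 0 FPKM (log2 fold change -4.08 ± 0.97, adjusted p = 0.015). The 3 calls held without any one library.

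Auxin genes had calls in both directions. Among small auxin up RNA genes, which respond early to auxin, was SAUR36 (Zm00001eb043760), which in Arabidopsis promotes leaf senescence, at 30.1, 19.8 and 55.3 FPKM in pSC18 and 194, 223 and 265 in pSC24 (log2 fold change 2.69 ± 0.59, adjusted p = 0.00989). Auxin response factors, the transcription factors of the pathway, included falls. The gene matched to ARF1 (Zm00001eb118970), a repressor-type factor, went from 52.5, 52.4 and 48.3 to 14.3, 10.7 and 20.7 FPKM (log2 fold change -1.76 ± 0.20, adjusted p = 0.000257), and that matched to ARF7 (Zm00001eb243930) from 58.9, 53.1 and 43.4 to 15.6, 15.5 and 20.1 FPKM (log2 fold change -1.62 ± 0.15, adjusted p = 0.000109). Another, matched to ARF12 (Zm00001eb066640), rose (log2 fold change 4.01 ± 0.73, adjusted p = 0.00356), so the factors did not share a direction. In the whole list, 6 of 78 rose (7.69%) and 4 fell (5.13%), beside 4.82% and 3.26% of all genes. Each of the 4 named calls held without any one library.

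The signal peptide ZmRALF12 (Zm00001eb410350, chromosome 10, 24925839 to 24926805), of the rapid alkalinization factors that bind FERONIA-type receptors, rose from 11.9, 27.4 and 20 to 59.5, 58.6 and 87.9 FPKM (log2 fold change 1.78 ± 0.29, adjusted p = 0.00189), and the call held without any one library. The receptors did not pass the test. ZmFERL1 had 50, 41.1 and 36.2 FPKM in pSC18 and 36.5, 31.2 and 32.1 in pSC24, and ZmFERL16 had 21.6, 32 and 26.8 in pSC18 and 42.6, 42.5 and 30.8 in pSC24 (adjusted p = 0.103 and 0.181), with overlapping groups in both. The LORELEI-like coreceptor gene ZmLLG3 was higher in all 3 pSC24 libraries (36, 42.7 and 37.2 FPKM in pSC18 and 53.3, 76.1 and 73 in pSC24) with an adjusted p of 0.0045, but its log2 fold change of 0.79 ± 0.15 stayed under 2-fold and it was not called.

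A pair of NADPH oxidase genes, whose enzymes make superoxide at the plasma membrane, moved in opposite directions. ZmRBOH4 (Zm00001eb197890) fell from 103, 101 and 89.5 to 43.2, 42.4 and 52.2 FPKM (log2 fold change -1.11 ± 0.12, adjusted p = 0.000148), called without any one library. The lower ZmRBOH3 (Zm00001eb293430) rose from 6.61, 7.74 and 6.47 to 11.2, 17.7 and 15.4 FPKM (log2 fold change 1.08 ± 0.21, adjusted p = 0.00499), and without pSC24 replicate 2 its change was under 2-fold (0.93). In FPKM, ZmRBOH4 was the higher of both genes in each of the 6 libraries. Of 30 tested genes in the class III peroxidase list, 6 rose (20%) and 1 fell (3.33%), beside 4.82% and 3.26% of all genes. The summed level of the list was 2263, 2149 and 1959 FPKM in pSC18 and 2149, 2193 and 2238 in pSC24. Of the rises, 2 held without any one library. Among them was the low Peroxidase 1 (Zm00001eb043100) at 3.88, 4.3 and 3.09 FPKM in pSC18 and 8.09, 8.9 and 20.8 in pSC24 (log2 fold change 1.73 ± 0.35, adjusted p = 0.00679). Of 259 antioxidant and glutathione genes, 6 rose and 5 fell, under the share of all genes for rises.

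In the calcium list, 20 of 333 rose (6.01%) and 13 fell (3.9%), near the 4.82% and 3.26% of all genes. The maize gene matched to the calmodulin-like protein CML14 (Zm00001eb161480) rose from 2.07, 2.71 and 1.7 to 34.9, 50.8 and 36.9 FPKM (log2 fold change 4.23 ± 0.61, adjusted p = 0.000983). Among mitogen-activated protein kinase genes, 4 rose (8%) and 3 fell (6%) of 50, with MPK12 (Zm00001eb227400) rising from 1.16, 3.03 and 1.97 to 26.7, 19.6 and 28.1 FPKM (log2 fold change 3.57 ± 0.67, adjusted p = 0.00414). The gene matched to IQ-DOMAIN 2 (Zm00001eb148890), a calmodulin-binding scaffold, fell from 122, 145 and 107 to 24.2, 16.7 and 42.7 FPKM (log2 fold change -2.18 ± 0.26, adjusted p = 0.000318).

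Transporters for amino acids and sugars had more rises than falls. In the list of amino acid, peptide and nitrogen transporters 19 of 126 rose (15.1%) and 4 fell. Amino acid permease 3 (Zm00001eb202080), an importer of the plasma membrane, went from 13.5, 16.5 and 10 to 60.3, 94 and 135 FPKM (log2 fold change 2.84 ± 0.43, adjusted p = 0.00122). The maize gene matched to the vacuolar transporter AVT3B (Zm00001eb250210), a family that releases amino acids from the vacuole, went from 26.6, 34.5 and 24 to 66.1, 68.4 and 97.4 FPKM (log2 fold change 1.43 ± 0.29, adjusted p = 0.00634). Lysine histidine transporter 1 (Zm00001eb261440) went from 18.9, 24.3 and 18 to 61.2, 69.1 and 44.1 FPKM (log2 fold change 1.5 ± 0.21, adjusted p = 0.000927).

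For sugars, 8 of 70 rose (11.4%) and 3 fell (4.29%), beside 4.82% and 3.26% of all genes. SWEET11 (Zm00001eb317850), a sugar exporter, had 0, 0 and 1.49 FPKM in pSC18 and 39, 37.3 and 67.3 in pSC24 (log2 fold change 6.48 ± 1.09, adjusted p = 0.00583). SWEET2a (Zm00001eb342040), whose Arabidopsis relative sits in the vacuolar membrane, went from 3.17, 3.77 and 2.88 to 15.8, 23 and 18.8 FPKM (log2 fold change 2.54 ± 0.26, adjusted p = 0.000128). The groups were separate for both SWEET genes, which held without any one library, as did the 3 amino acid transporters. Sucrose synthase 7 (Zm00001eb228780) varied widely between pSC24 libraries (0.525, 0.0163 and 3.48 FPKM in pSC18, 33, 12.5 and 87.7 in pSC24, adjusted p = 0.0161) and lost its call without pSC18 replicate 1 (adjusted p = 0.0617) or pSC24 replicate 3 (0.0723).

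Wall genes had more rises than falls. Of 188 expansin, xyloglucan, cellulose, glucanase, chitinase and arabinogalactan genes, 19 rose (10.1%) and 6 fell (3.19%), beside 4.82% and 3.26% of all genes. A xyloglucan endotransglucosylase/hydrolase gene (Zm00001eb371910), whose enzyme cuts and rejoins wall xyloglucan, had no count in pSC18 and 10.9, 19.4 and 25.5 FPKM in pSC24, at least 552-fold higher (adjusted p = 0.00044). A xylanase-like gene (Zm00001eb007740) had no count either and reached 12.1, 3.65 and 8.15 FPKM, at least 315-fold higher (adjusted p = 0.00105). Pectin methylesterase and invertase inhibitors were a separate list, in which 1 of 29 tested genes rose (3.45%) and 2 fell (6.9%). Of 53 tested pectin enzyme genes, 3 rose (5.66%) and 2 fell (3.77%). The rise among the inhibitors, matched to pectinesterase/pectinesterase inhibitor 22 (Zm00001eb333580), went from 3.9, 36.1 and 4.97 to 231, 190 and 297 FPKM (log2 fold change 3.98 ± 0.92, adjusted p = 0.0127). Replicate 2 of pSC18 was the highest of its stage there. The 3 calls held without any one library.

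Ubiquitin ligase genes numbered 44 rises (8%) and 16 falls among 550 tested. An F-box/kelch-repeat gene (Zm00001eb146000) had 0.987, 0.829 and 8.01 FPKM in pSC18, highest in replicate 3, and 122, 100.3 and 183 in pSC24 (log2 fold change 5.32 ± 1.06, adjusted p = 0.00584). The maize gene matched to U-box protein 4 (Zm00001eb239050), of the PUB family of ligases, fell from 64.7, 69 and 59.7 to 15.3, 19.8 and 19.5 FPKM (log2 fold change -1.84 ± 0.18, adjusted p = 0.000113). The proteasome itself had few calls, with 1 rise and 2 falls among 96 subunit and assembly genes and a median of 0.03.

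Some abundant rises belong to none of these lists. The called gene with the largest gain in mean FPKM was matched to the rice UDP-glycosyltransferase 79 (Zm00001eb318580) and went from 112, 239.8 and 111 to 859, 1183 and 752 FPKM (log2 fold change 2.58 ± 0.73, adjusted p = 0.0326). The groups were separate, but the call was lost without pSC18 replicate 1 (adjusted p = 0.112) or 3 (0.0982) and without pSC24 replicate 1 (0.0534) or 2 (0.0838). The translation factor SUI1 homolog (Zm00001eb323110) rose from 101, 130.5 and 103 to 213, 333 and 456 FPKM (log2 fold change 1.57 ± 0.22, adjusted p = 0.00076) and held without any one library. A large gain was also that of a non-coding gene (Zm00001eb240200, chromosome 5, 159602317 to 159602948), from 0.129, 14.7 and 6.02 to 246, 267 and 601 FPKM (log2 fold change 5.69 ± 0.79, adjusted p = 0.00076). An uncharacterized gene (Zm00001eb230160) had no count in pSC18 and reached 53.4, 26.4 and 32.8 FPKM in pSC24, at least 457-fold higher (adjusted p = 0.000447).

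The genes that fell included regulators of the synergid. ZmMYB98 (Zm00001eb212880, chromosome 5, 4444783 to 4445878), the maize counterpart of the Arabidopsis MYB factor that directs synergid differentiation, went from 475, 459 and 356 to 59.7, 55.2 and 179 FPKM (log2 fold change -2.15 ± 0.35, adjusted p = 0.00195). Replicate 3 of pSC24 kept the most, but the groups did not overlap, and the fall was called under each of the 18 alternatives tried. The homeobox gene ZmHB81 (Zm00001eb273120) fell from 493, 530.2 and 485 to 155, 203 and 255 FPKM (log2 fold change -1.31 ± 0.14, adjusted p = 0.00019) and was called without any one library.

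The other homeobox genes of the study were not called with all libraries. ZmHB24 went from 401, 514 and 399 to 271, 250.3 and 266 FPKM (adjusted p = 0.00119), below 2-fold (log2 fold change -0.75 ± 0.11). ZmHB42 had 272, 355 and 272 FPKM in pSC18 and 228, 253 and 226 in pSC24, and its change did not pass the test (adjusted p = 0.062). ZmHB44 had 113, 89.7 and 89.5 FPKM in pSC18 and 5.89, 12.4 and 82.7 in pSC24. All 3 pSC24 libraries were lower, replicates 1 and 2 by far and replicate 3 only slightly, and the change was not called with all libraries (log2 fold change -1.55 ± 0.65, adjusted p = 0.137). Without pSC24 replicate 3 it was called, with a log2 fold change of -3.40 (adjusted p = 8.5e-05). With the mapping-set term the log2 fold change was -4.05, and within the lower mapping set -4.06. In these 2 settings pSC24 replicate 1 in effect stands for its stage, so all 3 settings leave replicate 3 out of the comparison. The gene was called under these 3 of the 18 alternatives only. A maize gene matched to ICE1 (Zm00001eb142500), a basic helix-loop-helix factor, fell from 197, 188 and 161 to 50.8, 67.5 and 132 FPKM (log2 fold change -1.14 ± 0.26, adjusted p = 0.0121) and lost its call without pSC24 replicate 1 (log2 fold change -0.89) or 2 (adjusted p = 0.0517).

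Most of the abundant synergid transcripts named by the study were not called. Not all of them encode secreted products, as the study counts an annexin of the cytoplasm among its highly expressed synergid genes. Of 18 synergid genes with large transcript amounts that the study named (ZmES4 and 17 ZmSC genes), 0 rose, 2 fell and 16 were not called, with log2 fold changes between -0.89 and 0.45 in those 16. For 14 of the 18 the change was within 0.5 on the log2 scale. These genes were chosen by the study from these same samples, so their count is not independent evidence of a direction. Examples are ZmSC2 (34920.2, 33364 and 31091 FPKM in pSC18 and 37527, 31425 and 41145 in pSC24, adjusted p = 0.398) and ZmSC4 (27831, 27607 and 25531 FPKM in pSC18 and 25713, 26678 and 27928 in pSC24, adjusted p = 0.861).

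The 2 that fell follow. ZmSC57 (Zm00001eb017240, chromosome 1, 61753990 to 61756097), matched to annexin D4, a calcium-dependent membrane-binding protein, fell from 788, 887 and 771 to 110, 68.2 and 228 FPKM (log2 fold change -2.61 ± 0.32, adjusted p = 0.000352) and was called under each of the 18 alternatives. ZmSC8 (Zm00001eb211380) fell from 12562, 16763 and 15829.9 to 1578, 4174 and 9402 FPKM (log2 fold change -1.59 ± 0.43, adjusted p = 0.0264). The pSC24 libraries of ZmSC8 differed among themselves, and its call was lost without pSC18 replicate 2 (adjusted p = 0.0689) or 3 (0.0544) or pSC24 replicate 2 (0.0916). In ZmMYB98, ZmHB44, ZmSC57 and ZmSC8 alike, replicate 3 had the highest level of the 3 pSC24 libraries.

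Of all 58 maize genes that the study lists by identifier, 27 were called higher, 5 lower and 26 were not called. As above, they were picked by the study with these samples in hand. Without pSC18 replicate 3, 25 of the 27 and 4 of the 5 were still called. The cyclin-dependent kinase inhibitor ZmKRP1 (Zm00001eb255750), a brake on the cell cycle, was among the rises, with 1.7, 5.77 and 8 FPKM in pSC18 and 28.8, 43.3 and 45.5 in pSC24 (log2 fold change 2.90 ± 0.47, adjusted p = 0.00193).

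The called falls with the largest loss in mean FPKM after ZmSC8 were the 3 genes that follow. Putative pectate lyase 11 (Zm00001eb148660), which cleaves wall pectin, went from 2496, 2428 and 2468 to 1249, 716 and 1331 FPKM (log2 fold change -1.18 ± 0.18, adjusted p = 0.00113). Without pSC24 replicate 2 its change was -0.95, under 2-fold. An uncharacterized pair of neighbouring genes on chromosome 9 fell together. Zm00001eb387240 (chromosome 9, 100742619 to 100743135) went from 4304, 5444 and 4772 to 1348, 1990.2 and 2436 FPKM (log2 fold change -1.34 ± 0.18, adjusted p = 0.0005), and Zm00001eb387260 (chromosome 9, 100746256 to 100746543) from 6539, 7597 and 7426 to 2007, 3412 and 4246 FPKM (log2 fold change -1.17 ± 0.21, adjusted p = 0.00335). The second lost its call without pSC24 replicate 1 (log2 fold change -0.93).

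Enolase 1 (Zm00001eb377870), a glycolytic enzyme, fell from 1312, 1415 and 1492 to 747, 697 and 672 FPKM (log2 fold change -1.01 ± 0.11, adjusted p = 0.000148), a change at the 2-fold limit that was under it without pSC18 replicate 2 (-0.95) or 3 (-0.97) or pSC24 replicate 3 (-0.97). Of the genes for steps next to it, those picked after its value was seen were cytosolic phosphoglycerate kinase (Zm00001eb233070), which fell from 422, 391 and 544 to 233, 191 and 191 FPKM (log2 fold change -1.16 ± 0.14, adjusted p = 0.000292), and a phosphoglycerate mutase (Zm00001eb149730), which fell from 301, 273 and 289 to 138, 124 and 97.7 FPKM (log2 fold change -1.28 ± 0.16, adjusted p = 0.000366). For these 3 genes the groups were separate, and glycolysis as a whole was not counted.

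Heat shock proteins and chaperones included HSP70 genes that fell. Of 253 tested, 15 fell (5.93%, beside 3.26% of all genes) and 5 rose, with a median of -0.33. Their summed level was 5649, 5255 and 6283 FPKM in pSC18 and 4456, 4584 and 4353 in pSC24. Without pSC18 replicate 3, 11 of the 15 falls were called, and 6 were called without any one library.

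Heat shock 70 kDa protein 4 (Zm00001eb029200), a cytosolic chaperone, fell from 284, 328 and 352 to 105, 137 and 147 FPKM (log2 fold change -1.32 ± 0.16, adjusted p = 0.000298). A gene matched to heat shock cognate 70 kDa protein (Zm00001eb351340) fell from 52.9, 68.2 and 92.8 to 21.3, 11.9 and 12.5 FPKM (log2 fold change -2.24 ± 0.23, adjusted p = 0.000148), and the small heat shock gene of 18.6 kDa class III (Zm00001eb257130) from 3.9, 3.97 and 7.31 to 0.63, 0 and 0.205 FPKM (log2 fold change -4.21 ± 0.86, adjusted p = 0.00684). In these 3 genes pSC18 replicate 3 was the highest library, and they were called without it.

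Some co-chaperones rose. A maize gene matched to DnaJ subfamily A member 1 (Zm00001eb040580), of the partners that deliver clients to HSP70, rose from 0.948, 0.49 and 0.713 to 49, 17.8 and 62.4 FPKM (log2 fold change 5.90 ± 0.71, adjusted p = 0.000323). Another of the same match (Zm00001eb366410) rose from 0.774, 4.04 and 0.695 to 30.6, 51.6 and 136 FPKM (log2 fold change 5.27 ± 0.82, adjusted p = 0.00141). Both held without any one library, so the list did not share one direction.

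Small RNA and DNA methylation genes fell in 6 of 46 tested cases (13%) and rose in 1. Argonautes bind small RNAs and guide silencing. The gene matched to argonaute 4A (Zm00001eb332830) fell from 37.8, 35.6 and 52.8 to 14, 11 and 15.1 FPKM (log2 fold change -1.66 ± 0.19, adjusted p = 0.000256). One matched to argonaute 12 (Zm00001eb217290) fell from 10.1, 10.8 and 30.8 to 3.32, 2.64 and 4.21 FPKM (log2 fold change -2.36 ± 0.39, adjusted p = 0.00219), with pSC18 replicate 3 far above its sister libraries. Both calls held without any one library.

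The more abundant argonaute 12 gene (Zm00001eb053110) fell from 78.4, 66.7 and 63 to 38.2, 30.9 and 34.8 FPKM (log2 fold change -1.01 ± 0.11, adjusted p = 0.000236) and was under 2-fold without pSC18 replicate 1 (-0.88) or 2 (-0.99) or pSC24 replicate 2 (-0.94). Argonaute 2 (Zm00001eb070760) was the one that rose, from 7.01, 3.63 and 5.82 to 26.9, 17 and 8.46 FPKM (log2 fold change 1.66 ± 0.44, adjusted p = 0.0246). Its call was lost without pSC18 replicate 2 (adjusted p = 0.0844) or 3 (0.0591) or pSC24 replicate 1 (0.0977) or 2 (0.0554).

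Cell cycle and replication genes fell in 11 and rose in 11 of 219 cases (5.02% each, beside 3.26% and 4.82% of all genes), and some falls were lost without a single library. In pSC18 replicate 3, 26 of the 689 falling genes (3.77%) were over 3 times as high as in both sister libraries. The same held for 2 genes each in pSC18 replicates 1 and 2. Among the 26 were replication genes. A gene for the sliding clamp PCNA (Zm00001eb192050) had 7.55, 8.73 and 79.8 FPKM in pSC18 and 7.1, 5.52 and 5.12 in pSC24, and a histone H4 gene (Zm00001eb321260) had 3.26, 3.52 and 36.4 in pSC18 and 1.74, 1.68 and 3.29 in pSC24. The libraries of the stages overlapped for the histone gene. Without pSC18 replicate 3 their adjusted p was 0.298 and 0.533, and both calls were also lost without pSC24 replicate 1 (0.0715 and 0.121), 2 (0.104 and 0.134) or 3 (0.104 and 0.0748). Of the 26 genes, 1 was called without that library.

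The same was seen in a gene matched to the DEAD-box helicase 52A (Zm00001eb276780), an RNA helicase. It had 0.397, 0.374 and 84.7 FPKM in pSC18 and 0, 0 and 0.0909 in pSC24, and nearly all of its signal came from pSC18 replicate 3. Its adjusted p was 0.0144 with all libraries, 0.242 without that one, and 0.05, 0.0595 and 0.0545 without pSC24 replicates 1, 2 and 3. Histone genes summed to 929, 1140.4 and 2234 FPKM in the pSC18 libraries and 976, 829.7 and 994 in the pSC24 libraries, and of 4 falls among 73 tested histone genes 1 was called without pSC18 replicate 3. The egg cell and zygote list, looked up after these values were seen, summed to 117, 74.1 and 237 FPKM in the pSC18 libraries and 120.3, 54.3 and 131 in the pSC24 libraries, with EGG APPARATUS-1 (Zm00001eb327080) at 0, 0 and 26.3 FPKM in pSC18 and 0.988, 2.52 and 0.45 in pSC24, and the more abundant of the Egg cell-secreted protein 1.1 genes (Zm00001eb396810) at 73.8, 49.3 and 149 in pSC18 and 77.7, 37.5 and 85.1 in pSC24. Of the members of this list, 10 reached 1 FPKM in a pSC18 library. Replicate 3 was the highest pSC18 library in all of these but a pair. That pair, matched to WUSCHEL-related homeobox 8 (Zm00001eb149680 and Zm00001eb368970), had 3.45, 2.53 and 0.87 and 4.44, 1.82 and 2.81 FPKM in pSC18. The part of egg cell RNA in the falls of replication genes was not tested.

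Cell cycle calls that did not depend on that library included both directions. A gene matched to the centromeric histone HTR12 (Zm00001eb291210), the CENH3 of Arabidopsis, fell from 8.33, 11.9 and 14.3 to 2.84, 0.908 and 3.03 FPKM (log2 fold change -2.37 ± 0.38, adjusted p = 0.00191). Cyclin-B1-1 (Zm00001eb369340), a mitotic cyclin, fell from 57.8, 78.9 and 48.5 to 2.3, 8.68 and 26.7 FPKM (log2 fold change -2.32 ± 0.59, adjusted p = 0.0212) and lost its call without pSC18 replicate 2 (adjusted p = 0.0617) or pSC24 replicate 2 (0.0803). A cyclin-D6-1 gene (Zm00001eb323840) rose from 49.1, 49.9 and 34.2 to 152, 129 and 127 FPKM (log2 fold change 1.60 ± 0.31, adjusted p = 0.00484) and held without any one library.

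Classes of protein production and respiration had few calls. Of 286 cytosolic ribosomal protein genes 1 rose and 1 fell, with a median of -0.10. For 143 respiratory chain and ATP synthase genes the counts were 2 and 1, and for 161 genes of ER folding and secretory entry 2 and 1. These shares lie under those of all genes in both directions. The summed level of the ER folding and secretory entry list was nevertheless lower in all pSC24 libraries. It went from 13098, 11949 and 11933 to 9955, 10701 and 10428 FPKM, with a median log2 fold change of -0.14 over the genes tested. Of 28 tested MatE transporters, a family that exports metabolites, 4 fell and 0 rose, and all 4 falls held without any one library.

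The position of single libraries was then examined. For each of the 6 libraries, genes were called without it and the library was placed between the stage means of the others, with 0% for pSC18 and 100% for pSC24. By genes that rose, the median place was 0, 15.1 and 12.1% for pSC18 replicates 1, 2 and 3, and 83.2, 91.5 and 107% for pSC24 replicates 1, 2 and 3. By genes that fell, it was 10.2, 11.4 and 11.2% in pSC18 and 75.1, 98.0 and 59.2% in pSC24. By these medians no pSC18 library lay near pSC24, replicate 3 included. Of the genes that rose, 9.69, 11.6 and 19.0% were nearer to pSC24 in pSC18 replicates 1, 2 and 3. Of those that fell, 12.8, 16.8 and 8.14% were. Replicate 3 of pSC24 was ahead of its sister libraries for the genes that rose and behind them for those that fell, and 40.3% of the latter were nearer to pSC18 in it.

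**Figure D5:**
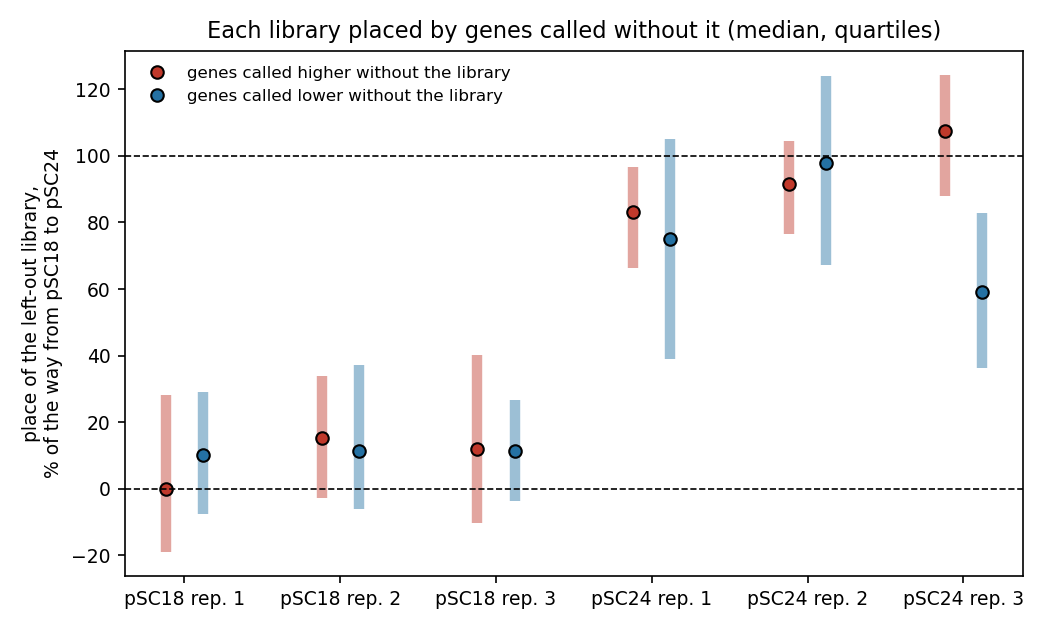
Place of each left-out library (x axis) between the mean of pSC18 (0%) and that of pSC24 (100%), by genes called higher (red) or lower (blue) without it. Points are medians over genes and bars span the quartiles. The pSC18 libraries lie between 0 and 15.1%, and pSC24 replicate 3 lies at 107% by genes that rose and at 59.2% by genes that fell.

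Without pSC18 replicate 3, 3.93% of the genes tested rose and 2.58% fell, which kept 723 of the 1019 rises and 486 of the 689 falls. All lost calls that were still tested kept their sign (296 rises and 202 falls), and 241 and 144 of them were still over 2-fold, while the median SE of all genes went from 0.37 to 0.43. Without pSC24 replicate 3, 3.13% rose and 3.35% fell, and 646 rises and 499 falls were kept. For comparison, edgeR on the 6 libraries alone called 5.45% higher and 1.81% lower, and DESeq2 on 12 libraries called 6.21% and 4.23%. Calls that held without any one of the 6 libraries numbered 517 rises and 307 falls.

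The libraries also differ in how many of their reads mapped to the genome. The 3 pSC18 libraries and pSC24 replicate 1 are in a set with a lower mapped share, and pSC24 replicates 2 and 3 in a set with a higher one, so that stage and mapping set are partly confounded. A term for the set and a fit within the lower set gave nearly the same log2 fold changes. For ZmMYB98 they were -2.85 and -2.86, and for ZmHB44 -4.05 and -4.06. In both settings pSC24 replicate 1 in effect stands for its stage, so they are not separate checks. For genes and classes that lose calls in them, mapping and the loss of replicates cannot be told apart. With a term for the set, 403 genes rose (1.91%) and 372 fell (1.76%), of which 377 and 236 were also called without the term. Within the lower set alone, where pSC24 replicate 1 stands for its stage and is assumed to vary like the other groups, 296 rose (1.29%) and 401 fell (1.74%), of which 267 and 265 were among the calls with all libraries. ZmCEP1, ZmNEN4, ZmEREB202, ZmEIL1, ZmMYB98, ZmSC57 and the ATG8C genes named above were called in both. ZmVPEγ (adjusted p = 0.115, Zm00001eb345400), ZmNAC087L2 (0.112, Zm00001eb330910), ZmBFN1 (0.136, Zm00001eb043930) and the S40 genes were not called with the term.

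By class, the mapping-set term left 6 of 13 NAM rises, 7 of 15 AP2 rises, 8 of 11 autophagy rises, 8 of 11 ABA rises, 6 of 11 peroxisome and fatty acid rises and 5 of 15 heat shock falls. It left 0 of 6 bZIP_1 rises.

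Markers of neighbouring cells had few calls. The summed level of 26 egg cell and zygote genes was 74.1 to 237 FPKM in pSC18 and 54.3 to 131 in pSC24, 14 and 15 of the 26 had no count in the stage, and 0 of 9 tested were called. For 158 pollen and pollen tube genes the sum was already 736 to 881 FPKM in SC, before pollination. It was 528 to 537 FPKM in pSC18 and 568 to 843 in pSC24. In these 2 stages 104 and 89 of the genes were at 0, and 1 of 42 tested rose. That gene, matched to expansin-B14 (Zm00001eb380890), had 2.12, 3.66 and 1.45 FPKM in pSC18 and 1.82, 15.9 and 21.7 in pSC24. Its log2 fold change of 2.43 ± 0.74 turned to -0.41 with the mapping-set term, where pSC24 replicate 1 in effect stands for its stage.

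For the 65 genes of the endosperm list the sum was 994 to 1287 FPKM in pSC18 and 1189 to 1857 in pSC24. In these stages 44 and 41 were at 0, and 1 of 20 tested rose and 1 fell. The rise was a non-coding gene of the files whose description matches a 16 kDa gamma-zein (Zm00001eb099950), with 0, 0.346 and 0 FPKM in pSC18 and 61.1, 75.3 and 149.5 in pSC24 (log2 fold change 9.55 ± 0.78, adjusted p = 0.000252). The fall was a low gene matched to Myosin-binding protein 1 (Zm00001eb151710), with 1.01, 0.391 and 1.44 FPKM in pSC18 and 0, 0 and 0.129 in pSC24. The search terms of this list took in many such myosin-binding protein genes, which are not endosperm markers. Most of the sum came from a locus matched to MATERNALLY EXPRESSED GENE 1. It had 870, 966 and 1136 FPKM in pSC18, 1076, 1004 and 1609 in pSC24, and already 1117, 1479 and 2013 in SC. The sum is therefore not a measure of endosperm RNA. For 118 genes of photosynthetic tissue the sum was 54.3 to 59.5 FPKM and then 65.0 to 79.5, 70 and 71 were at 0, and 1 of 24 tested rose, a Photosystem I subunit III gene (Zm00001eb213670) at 6.96, 4.44 and 2.63 FPKM in pSC18 and 16, 19.4 and 13.1 in pSC24. What part such cells had in any result was not tested.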

How the data were processed

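Libraries of 25 to 28 hand-isolated cells (3 per stage, 4 stages) were sequenced by the study. The authors trimmed reads with cutadapt 1.15, aligned them with HISAT2 2.0.5 to Zm-B73-REFERENCE-NAM-5.0 and made the deposited gene counts with featureCounts 1.5.0-p3. The deposited FPKM are those counts scaled by the authors by gene length and library size. Strand and multi-mapping settings are not given in the sources used here.

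Counts were tested with edgeR 4.0.16 (R 4.3.3, limma 3.58.1) by the quasi-likelihood test, with TMM scaling and filterByExpr, in 1 fit over 12 libraries and with Benjamini-Hochberg adjustment over 21143 genes. DESeq2 1.42.0 was an alternative. Other computing used Python 3.11.15, pandas 2.3.3, numpy 2.4.6, scipy 1.17.1 and matplotlib 3.10.9. The fits were tested on simulated data.

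Classes were 45 lists searched in the deposited gene descriptions and 45 protein domains. A search term for the protease list left out papain-type genes with a propeptide inhibitor domain, so these were counted by domain. A gene with no count in a stage was set against a floor of 3 counts over its 3 libraries together, which covers counting error only. Named genes are the 10 largest rises and falls by fold (separate libraries, a stage mean of 5 FPKM or more) and by gain or loss of mean FPKM, up to 3 called genes per class and direction with the highest levels, 58 genes the study lists, and the 3 highest non-coding genes and unannotated loci of each stage. Exceptions are stated. The members, lists and tests were chosen with earlier results of these data known.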

Additional observations from a re-analysis of the deposited data

How the results depend on the processing

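Genes that rose numbered 1019 and those that fell 689 with all libraries. The count of falls was 356 with edgeR on the 6 libraries alone. Against a null change of 2-fold (glmTreat) the counts were 298 and 78, with the mapping-set term 403 and 372, with that term and the replicate block 212 and 236, and within the lower mapping set 296 and 401. Leaving out 1 library gave 686 to 921 rises and 519 to 735 falls, lowest for rises without pSC24 replicate 3. Other scalings, filters and DESeq2 kept both counts within 1.5 times. The log2 fold change of the expansin-B14 gene (Zm00001eb380890), 2.43, turned to -0.41 with the mapping-set term, -0.29 with that term and the block, and -0.42 within the lower set. These settings rest in effect on pSC24 replicate 1, whose level lay within the range of the pSC18 libraries, so they are not separate checks.

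Replicate numbers paired the libraries weakly at most: deviations of same-numbered pSC18 and pSC24 libraries from their stage means had correlations of 0.003, 0.095 and 0.075. Those of differently numbered libraries lay between -0.111 and 0.040. With the number as a replicate block, 931 genes rose and 627 fell. Promoter motifs were not run. In classes and genes with values near the threshold, 3 libraries a stage limit the call.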

Other observations

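Of 502 non-coding genes tested, 32 rose and 8 fell. Of 1342 tested loci without an annotated gene, 20 rose and 58 fell. Over all genes tested, 4.82% rose and 3.26% fell. The non-coding gene Zm00001eb371660 went from 52.6, 78.1 and 56.5 to 155, 199.5 and 384 FPKM (log2 fold change 1.96 ± 0.28). The non-coding gene Zm00001eb040780 went from 35.4, 49 and 40.4 to 119.5, 166 and 157 FPKM (log2 fold change 1.81 ± 0.44), and its call was lost without pSC18 replicate 1 (edgeR adjusted p = 0.0583). The gene Zm00001eb107680 fell from 12.3, 9.79 and 9.16 to 4.1, 3.64 and 3.65 FPKM (log2 fold change -1.47 ± 0.26). Of the unannotated loci, the one matched to the membrane protein LTI6A had 0.318, 0.741 and 1.24 FPKM in pSC18 and 35.3, 29.9 and 74.2 in pSC24 (chromosome 7, 177451772 to 177452688, log2 fold change 5.86 ± 1.10, edgeR adjusted p = 0.00411). Another locus (chromosome 9, 74976940 to 74977759) fell from 50.7, 50.8 and 69.6 to 7.43, 13.8 and 24.2 FPKM (log2 fold change -1.93 ± 0.33). In each of the 5 the libraries of both stages were separate.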
